A study of Homo sapiens with 3 samples.

Results

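Between the peaks of H3K27ac and H3K4me3 in HCC1599 cells, 255 autosomal stretches of 500 kb or more carried no peak of either mark. The peaks of both lists on chromosomes 1 to 22 were pooled and merged into 75431 regions, and a stretch was any gap of at least 500 kb between consecutive regions of a chromosome, with the chromosome ends left out. The stretches were 255 of 75409 such gaps (0.338%), and they were chosen by the gap lengths and the lack of peaks, which are therefore given as a description. They summed to 260 Mb, which was 9.28% of the 2796 Mb from the first to the last peak of each autosome.

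HCC1599 is an established line of triple-negative breast cancer cells, and the series labels it as positive for a MARCO transcript called MARCO-TST. Chromatin was immunoprecipitated with an antibody to H3K27ac (Active Motif) in 1 library and to H3K4me3 (Cell Signaling Technology) in another, and an input sample was sequenced too, for which no peak list was used. H3K27ac had 72895 peaks, 71043 of them autosomal, and H3K4me3 had 32045, of which 31074 were autosomal. Each mark had 1 library, so replicate spread is unknown and no test was run. The number of reads behind the lists is unknown here, so that a stretch is sequence where no peak was called, not sequence shown to lack the marks. Intervals are exact Clopper-Pearson 95% binomial intervals, and the limit given beside a count of 0 is the share that 3 counts of the total would make, slightly below the exact upper bound. Both cover counting error only, and neighbouring genes of a family are not independent.

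H3K4me3 is laid down around transcription starts, most of all where the promoter is rich in CpG dinucleotides, and H3K27ac marks active promoters and enhancers. Long stretches with neither mark are known from gene deserts, from centromeres and other satellite DNA, and from clusters of genes that are used in a few cell types only, such as the olfactory receptors of the nose. Short reads that match several places of a genome cannot be placed, so near-identical copies of a sequence can also lack peaks for want of reads. Centromere positions, assembly gaps and the share of each stretch in which reads can be placed were not used here, and their part in the results was not tested.

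The promoters below, from RefSeq on GRCh38.p14, run 250 bases before to 50 bases after the annotated start and show what kinds of gene lay in the stretches, with CpG dinucleotides in capitals. Those of TAFA5 and CRMP1 are rich in CpG, TP53TG3 has identical copies elsewhere, CSN3 and MS4A2 hold no CpG, and that of ATRNL1 carried an H3K4me3 peak while nearly all of the gene behind it lay in a stretch.
TAFA5 promoter, chr22:48489303-48489602, plus strand: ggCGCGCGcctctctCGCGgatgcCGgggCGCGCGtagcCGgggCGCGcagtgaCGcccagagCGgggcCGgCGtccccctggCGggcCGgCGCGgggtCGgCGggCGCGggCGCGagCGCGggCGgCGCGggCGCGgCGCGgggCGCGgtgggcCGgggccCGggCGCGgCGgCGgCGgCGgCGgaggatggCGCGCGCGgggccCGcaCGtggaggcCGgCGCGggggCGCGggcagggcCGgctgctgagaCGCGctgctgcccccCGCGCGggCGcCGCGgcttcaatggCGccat
CRMP1 promoter, chr4:5893037-5893336, minus strand: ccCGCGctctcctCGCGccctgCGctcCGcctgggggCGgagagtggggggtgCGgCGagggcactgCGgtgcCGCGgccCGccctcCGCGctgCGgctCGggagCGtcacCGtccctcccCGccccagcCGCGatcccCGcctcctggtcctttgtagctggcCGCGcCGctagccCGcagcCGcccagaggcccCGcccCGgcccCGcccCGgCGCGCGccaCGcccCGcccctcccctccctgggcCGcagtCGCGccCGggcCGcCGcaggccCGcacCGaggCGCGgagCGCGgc
TP53TG3 promoter, chr16:32676116-32676415, minus strand: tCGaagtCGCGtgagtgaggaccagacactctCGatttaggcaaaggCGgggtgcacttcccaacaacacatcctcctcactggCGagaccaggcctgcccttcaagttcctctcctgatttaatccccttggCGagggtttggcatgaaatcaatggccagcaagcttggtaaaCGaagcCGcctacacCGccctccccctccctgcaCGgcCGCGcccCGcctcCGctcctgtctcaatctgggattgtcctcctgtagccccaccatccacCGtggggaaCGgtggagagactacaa
CSN3 promoter, chr4:70238131-70238430, plus strand: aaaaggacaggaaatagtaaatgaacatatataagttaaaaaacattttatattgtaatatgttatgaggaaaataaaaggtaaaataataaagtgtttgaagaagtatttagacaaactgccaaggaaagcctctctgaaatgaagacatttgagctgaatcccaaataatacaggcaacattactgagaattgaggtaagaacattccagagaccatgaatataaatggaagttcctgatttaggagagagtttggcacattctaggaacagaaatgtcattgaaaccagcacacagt
MS4A2 promoter, chr11:60088414-60088713, plus strand: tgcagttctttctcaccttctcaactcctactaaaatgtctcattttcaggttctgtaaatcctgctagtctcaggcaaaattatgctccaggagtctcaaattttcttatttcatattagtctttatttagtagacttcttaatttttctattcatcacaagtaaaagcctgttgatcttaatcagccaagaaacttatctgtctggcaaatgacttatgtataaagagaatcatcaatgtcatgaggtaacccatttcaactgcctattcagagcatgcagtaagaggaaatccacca
ATRNL1 promoter, chr10:115093115-115093414, plus strand: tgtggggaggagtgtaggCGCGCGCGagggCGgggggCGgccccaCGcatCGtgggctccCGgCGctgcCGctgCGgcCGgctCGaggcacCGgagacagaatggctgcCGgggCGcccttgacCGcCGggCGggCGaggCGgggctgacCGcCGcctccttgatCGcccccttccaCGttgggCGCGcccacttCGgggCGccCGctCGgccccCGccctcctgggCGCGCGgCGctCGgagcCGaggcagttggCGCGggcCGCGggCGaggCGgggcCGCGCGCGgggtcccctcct

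Most stretches were little longer than the threshold. Their median length was 656 kb (interquartile range 567 to 848 kb), and 212 of the 255 were under 1 Mb and held 139 Mb together. Another 25 measured 1 to 2 Mb, and 18 were 2 Mb or longer and held 89.4 Mb. The 3 shortest stretches, at 500224, 501296 and 501355 bp, lay on chromosomes 9, 9 and 2, and the 3 longest gaps left out, at 499276, 499200 and 499015 bp, lay on chromosomes 16, 12 and 7, so the threshold falls in a continuous range of lengths.

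Annotated genes covered 28.6% of the stretches' sequence. No gene of any kind overlapped 19 stretches (24.98 Mb), non-coding genes or pseudogenes alone overlapped 92 (90.7 Mb), and 144 (144 Mb) touched a protein-coding gene. Of these, 64 held at least 1 whole protein-coding gene and 80 had only part of such a gene.

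**Figure D1:**
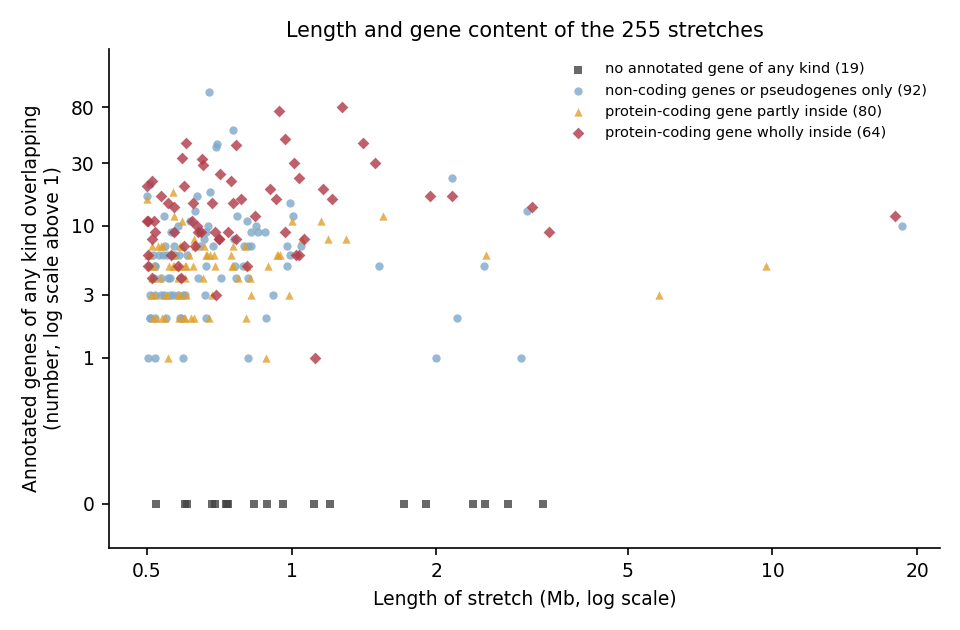
Length of each stretch (Mb, log scale) against the number of annotated genes of any kind that overlap it (log scale above 1), with 1 point per stretch and the marker giving the kind of gene. The 2 stretches over 10 Mb overlap 10 and 12 genes, and the 19 stretches without a gene reach 3.33 Mb.

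The longest stretches held next to no genes. On chromosome 1 the stretch chr1:124905732-143498110 ran for 18.6 Mb with no protein-coding gene and 9 other whole genes, and genes covered 0.764% of it. Its neighbour chr1:121574664-124905374 (3.33 Mb) had no annotated gene at all, and the H3K27ac peak between them was 357 bp wide with a score of 92.4. The scores are the authors' own value for each peak, from 30 to 3233, with no stated unit. Chromosome 9 had 18.0 Mb at chr9:43322660-61330218, where the protein-coding genes were SPATA31A5, SPATA31A7 and LOC107984126. The next longest were 9.71 Mb on chromosome 16, which took in part of SHCBP1 and no whole protein-coding gene, 5.82 Mb on chromosome 18, with part of ROCK1, and 3.43 Mb on chromosome 11, with the olfactory receptor gene OR4C46. Stretches of 3.16 Mb on chromosome 22 (with the olfactory receptor gene OR11H1), 3.09 Mb on chromosome 20, 2.999 Mb on chromosome 7 and 2.81 Mb on chromosome 15 completed the 10 longest, the last with no annotated gene. Genes covered under 5% of 49 stretches, which held 112 of the 260 Mb.

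The longest stretch of each autosome came to 93.6 Mb together, and 18 of these 22 held no whole protein-coding gene. Without them 233 stretches and 166 Mb remained, 5.93% of the span. On that count chromosome 8 had the largest share, 14.5% of its span, ahead of chromosome 18 (12.1%), chromosome 13 (10.7%) and chromosome 14 (10.6%). Chromosomes 15 (1.14%), 3 (1.24%) and 1 (2.60%) had the smallest. The stretches taken out were unlike, with genes covering 0.764% of that on chromosome 1 and 83.1% of that on chromosome 8. The ranking is therefore not on a like basis. Chromosome 8 also had the most stretches, 28, against 2 on chromosome 15 and 5 on chromosome 3. Local copy number and depth by chromosome were not analysed here, and their part in these shares was not tested.

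Of 19126 autosomal protein-coding genes, 308 (1.61%, 1.44 to 1.80) lay wholly inside a stretch, where the stretches made up 9.28% of the span. Counted by the gene's midpoint, the stretches held 1.49 protein-coding genes per Mb and the rest of the span 7.34 per Mb, a 4.92-fold difference. Peaks at gene ends break gaps, and only 26.6% of protein-coding genes had no peak of either mark within 1 kb of an end. The rule that chose the stretches thus lowers the share and density of genes in them by itself, and both are a description. Long non-coding RNA genes numbered 2.91 per Mb in the stretches and 6.62 in the rest, and pseudogenes 3.16 and 5.70. No transfer RNA gene of 439 was inside, which allows a share of up to 0.683%. Over genes of any kind 3.66% were inside. The protein-coding genes inside were short, with a median span of 6274 bp against 25017 bp for the others, and a gene that reaches past a bordering peak cannot be counted as inside.

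Gene density fell gradually with the length of the gap. Peaks at gene ends cut gene-rich sequence into short gaps by construction, so this fall is a description. Gaps under 10 kb held 19.7 protein-coding gene midpoints per Mb, gaps of 10 to 50 kb held 11.3 and those of 50 to 100 kb held 6.21. Those of 100 to 250 kb held 3.64 and those of 250 to 500 kb held 2.23, before the 1.49 of the stretches. Within the stretches, the 43 of 1 Mb or more (121 Mb) held 0.769 per Mb. The shorter stretches thus held more than 1.49 per Mb.

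**Figure D2:**
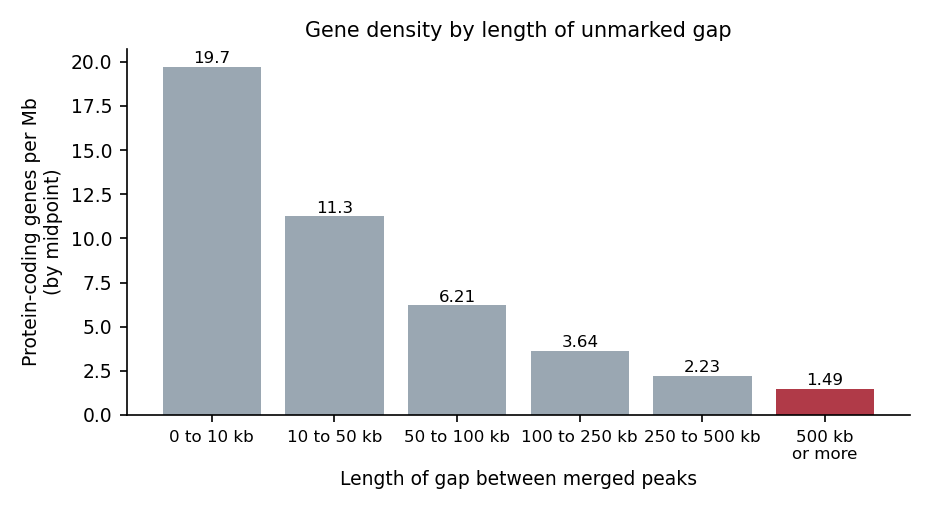
Protein-coding genes per Mb, counted by midpoint, in gaps between merged peaks by the length of the gap (kb), with 1 bar per class of length and the stretches at the right. The bars fall in order from 19.7 to 1.49 genes per Mb, and peaks at gene ends shorten gaps by construction.

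The genes inside were bunched. A whole protein-coding gene lay in 64 stretches, in 30 of which it was the only one, and 10 stretches with 10 or more genes held 198 of the 308. Sensory genes made the largest group. Of 391 autosomal olfactory receptor genes, which encode the odorant receptors of nasal sensory neurons, 90 (23.02%, 18.9 to 27.5) were inside, in 7 stretches on 4 chromosomes. A stretch of 940 kb on chromosome 11 held 29 of them, beginning with OR51D1, OR51E1, OR51E2 and OR51C1, and 37 protein-coding genes in all. The nearest H3K27ac peaks bounded it on both sides with scores of 44.7 and 38.9, and the nearest H3K4me3 peaks lay 208 and 53.8 kb further out. The stretch chr11:55126199-56401203 held 34 olfactory receptor genes, OR4A16, OR4A15, OR4C15 and OR4C16 first, with TRIM48 and TRIM51. It lay in a gap of 7117 kb between H3K4me3 peaks. Another on chromosome 11, chr11:57983871-58576237, held 13, with OR9Q1, OR6Q1, OR9I1 and OR9Q2 first, and chr17:3049810-3562943 held 11, with OR1D5 and OR1G1 among them, besides SPATA22, ASPA and the skin ion channel gene TRPV3.

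The other 301 olfactory receptor genes lay outside the stretches, 281 of them with no peak of either mark within 1 kb of an annotated end. Over the family 370 of 391 had no peak at an end (94.6%), against 26.6% of all protein-coding genes. A cluster counted as inside only where no peak broke it into gaps under 500 kb. Of the taste and vomeronasal receptor genes 27 of 31 had no peak at an end, and none lay inside, which allows a share of up to 9.68%.

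Several secreted and epidermal families had few members with a peak at an end. Keratin-associated protein genes, which encode hair shaft proteins, had none inside of 94 (up to 3.19%) and 89 without a peak at an end. Late cornified envelope and small proline-rich protein genes of the epidermis had none inside of 30 (up to 10%), with 29 without a peak at an end. Interferon genes had none inside of 21 (up to 14.3%), with 20 bare. All 3 limits lie above the 1.61% of all protein-coding genes. Defensin genes, which encode antimicrobial peptides, had 6 of 45 inside (13.3%, 5.05 to 26.8), all in 1 stretch of 604 kb on chromosome 8: DEFB107A, DEFB105A, DEFB106A, DEFB104A, DEFB103A and DEFB4A. The stretch, chr8:7680636-8284452, held 22 protein-coding genes, with FAM90A14, FAM90A18, FAM90A16 and FAM90A8 first and 11 of the 21 FAM90A genes, a group singled out after its values were seen. Over all autosomal protein-coding genes 5090 had no peak at an end, and 304 of these (5.97%) were inside a stretch. Of the 308 genes inside, the other 4 had a peak within 1 kb of an end across the border, among them SOX1, a transcription factor gene of neural progenitors with an end 0.026 kb from the border, and OR4M2B, 0.067 kb from it.

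Genes known from germ cells and placenta also lay in clusters. PRAME family genes, which are known for expression in germ cells and in some tumours, had 22 of 24 inside (91.7%, 73.0 to 99.0), all in chr1:12676887-13442225, a stretch of 765 kb with 28 protein-coding genes. AADACL3, CFAP107, PRAMEF12 and PRAMEF1 came first. H3K27ac bounded it on the lower side with a score of 32.9 and H3K4me3 on the upper side with 88.8, and the next H3K4me3 peak on the lower side, 57.1 kb further out, scored 3100. The CEACAM adhesion genes and the PSG genes, which encode pregnancy-specific glycoproteins of the placenta, had 10 of 22 inside (45.5%, 24.4 to 67.8), in 1 stretch of 710 kb on chromosome 19. CEACAM1 and CEACAM8 came first, then PSG3 and PSG8. Of the POTE and SPATA31 genes 4 of 28 were inside (14.3%, 4.03 to 32.7): SPATA31A5, SPATA31A7, POTEB2 and POTEB3.

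Clusters of blood, gland and muscle genes and of TRIM genes, outside the family list, were singled out after their values were seen. Their shares stand beside the 1.61% of all protein-coding genes. The stretch chr11:60074230-60821570 held 15 of the 16 MS4A genes (93.75%), which encode membrane proteins mostly of leukocytes. MS4A2, the beta chain of the mast cell IgE receptor, came first, then MS4A6A, MS4A4E and MS4A4A. The lower border of this stretch was an H3K4me3 peak with a score of 92.7 and its upper border an H3K27ac peak with 63.9. Of 77 TRIM genes 9 were inside (11.7%), 7 of them in chr11:89568154-90219701 with TRIM77, TRIM49, TRIM64B and TRIM49D1 first. At chr4:69984775-70520874 lay 12 of 14 genes of saliva and milk proteins and their neighbours (85.7%), beginning with STATH, HTN3, HTN1 and PRR27. CSN3, which encodes kappa-casein, was the only casein gene among the 12. Of 14 autosomal MYH genes 5 were inside (35.7%), namely MYH13, MYH8, MYH4, MYH1 and MYH2. They encode myosin heavy chains of skeletal muscle and lay in a stretch of 638 kb on chromosome 17. Immunoglobulin segments were counted apart from the protein-coding genes. All 82 annotated kappa light chain segments on chromosome 2 were inside and 93 of 174 heavy chain segments on chromosome 14, while none of 88 lambda light chain segments on chromosome 22 and none of the T cell receptor segments were. Over the immune receptor segments as a whole 176 of 601 were inside (29.3%), against the 3.66% of all genes.

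Among neural adhesion genes, none of 23 classical cadherin, 63 protocadherin, 16 contactin and neurexin or 33 neuronal leucine-rich repeat genes was inside, which allows shares of up to 13.04%, 4.76%, 18.8% and 9.09%. At the 1.61% of all protein-coding genes, families of these sizes would hold few or no members inside, so the zeros are no result about them. Of these genes 7 were partly inside, PCDH17, PCDH20, PCDH9, CNTNAP5, CNTNAP2, NRXN3 and LRFN5, beside 128 of all 19126 autosomal protein-coding genes. Genes partly inside were long, with a median of 344 kb against 24.5 kb over all, and the part of length in the 7 was not tested. Of 26 glutamate receptor genes 1 was inside, GRM3. Potassium channels had 2 of 94 inside, KCNU1 and KCNQ3. C2H2 zinc finger genes had 1 of 505 inside (0.198%, 0.00501 to 1.10), below the 1.61% of all protein-coding genes. No peak lay at an end of 66 of the 505 (13.1%), against 26.6% of all protein-coding genes. As families unlike these, none of 76 ribosomal protein genes (up to 3.95%), 38 proteasome genes (up to 7.89%) or 79 histone genes (up to 3.80%) was inside, and each limit lies above the 1.61% of all protein-coding genes, so that a lower share was not detectable with so few members. In all, 23 of the 34 families had no member inside, and those with 3 or more inside numbered 5.

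**Figure D3:**
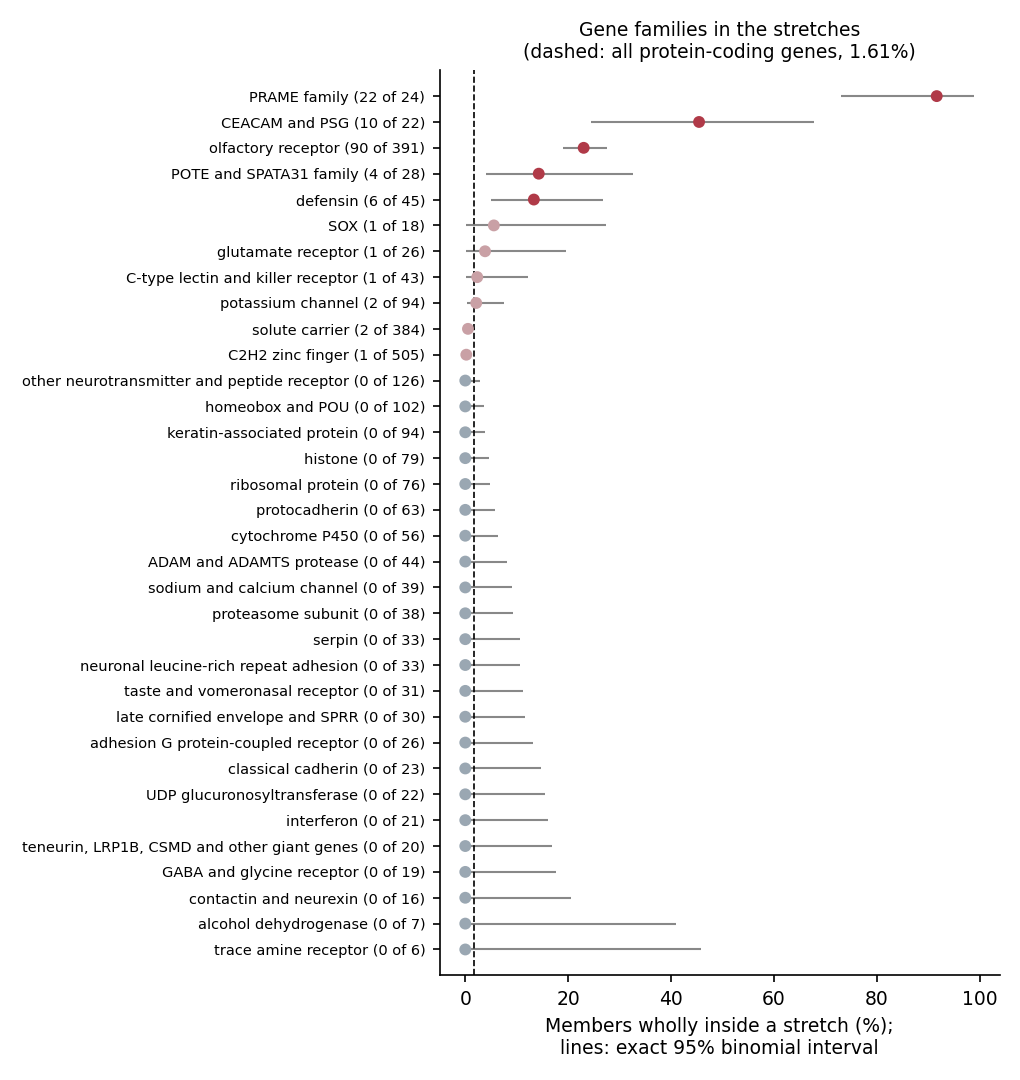
Share of each family's autosomal protein-coding members that lie wholly inside a stretch (%), with members inside and members in all in parentheses, 1 point per family (red for 3 or more inside, pink for 1 or 2, grey for 0) and lines for the exact 95% binomial interval, and a dashed line at 1.61% for all protein-coding genes. The PRAME family stands at 91.7%, CEACAM and PSG genes at 45.5% and olfactory receptors at 23.02%, and 23 families are at 0.

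Long single genes filled much of some stretches. The longest genes inside were SGCZ (1154 kb), which encodes zeta-sarcoglycan of muscle, DOCK2 (446 kb), a Rac activator of leukocytes, SYNPR (416 kb), a synaptic vesicle protein, XIRP2 (371 kb), an actin-binding protein of striated muscle, and KCNQ3 (360 kb), a neuronal potassium channel. MMP26 (288 kb), a matrix metalloproteinase gene, TAFA5 (262 kb), GRM3 (221 kb), a metabotropic glutamate receptor gene, PRMT8 (213 kb), an arginine methyltransferase of brain, and EVC2 (181 kb), a protein of the primary cilium, followed. SGCZ was the only 1 of 303 protein-coding genes of 500 kb or more to fit inside. Genes that were the only whole protein-coding gene of their stretch included TYR and TYRP1, the pigment enzymes of melanocytes, and TIMP3, a metalloproteinase inhibitor, picked after their values were seen.

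Another 128 protein-coding genes lay partly inside, and with the 308 they made 436 that overlapped a stretch (2.28%). They were long, with a median of 344 kb, and 15 of them held a whole stretch within their span, which placed 17 stretches (11.6 Mb) inside single genes. CSMD1, which encodes a complement-regulating membrane protein, had 2059 of its 2060 kb in 2 stretches of chromosome 8 that were parted by 1 H3K27ac peak of 235 bp with a score of 92.9, and it had no H3K4me3 peak. LRP1B, an LDL receptor family gene, had 1691 of 1900 kb in 2 stretches, parted by an H3K27ac peak of 348 bp with a score of 76.9. CNTNAP2, of the neurexin superfamily, had 1252 of 2304 kb inside, MACROD2, an ADP-ribosylhydrolase gene, 1160 of 2058 kb, CTNNA2, a neural alpha-catenin gene, 1033 of 1463 kb, and RBFOX1, a neuronal splicing factor gene, 1023 of 2474 kb. NRXN3, a neurexin gene, had 947 kb inside, NKAIN2 885 kb, ATRNL1 825 kb and DLGAP2, a postsynaptic scaffold gene, 754 kb.

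At the ends of the genes partly inside H3K4me3 was more frequent than H3K27ac. Of all 128, 78 had H3K4me3 (60.9%), 38 had H3K27ac (29.7%) and 50 had neither (39.1%). Within 1 kb of an annotated end, 26 of the 47 genes of 500 kb or more that were partly inside had H3K4me3 (55.3%, 40.1 to 69.8) and 6 had H3K27ac (12.8%, 4.83 to 25.7). Neither mark was at an end of 21 of the 47 (44.7%, 30.2 to 59.9). Among 255 genes of that length that touched no stretch, 196 had H3K4me3 (76.9%, 71.2 to 81.9), 108 had H3K27ac (42.4%, 36.2 to 48.7) and 58 had neither (22.7%). Over all autosomal protein-coding genes the shares were 70.2% for H3K4me3, 61.7% for H3K27ac and 26.6% for neither. Lack of peaks nearby chose the genes partly inside. Each of them also had to reach a bordering peak, and all 128 had a peak in their span. That peak can be the one at the gene's own end, as at B3GALT1. The rule thus acts on these shares both ways, and they and their comparison with other genes are a description. ATRNL1 had an H3K4me3 peak with a score of 1909 over the promoter printed above, no H3K27ac peak there, and 1 peak of each mark in its 856 kb. B3GALT1, a galactosyltransferase gene, had 580 of its 581 kb in a stretch and an H3K4me3 peak of 2345 bp at its start with a score of 3100, which stood alone between stretches of 806 and 664 kb. MACROD2 likewise had H3K4me3 at its promoter with 3100, and CNTNAP2 with 496, both without H3K27ac there.

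**Figure D4:**
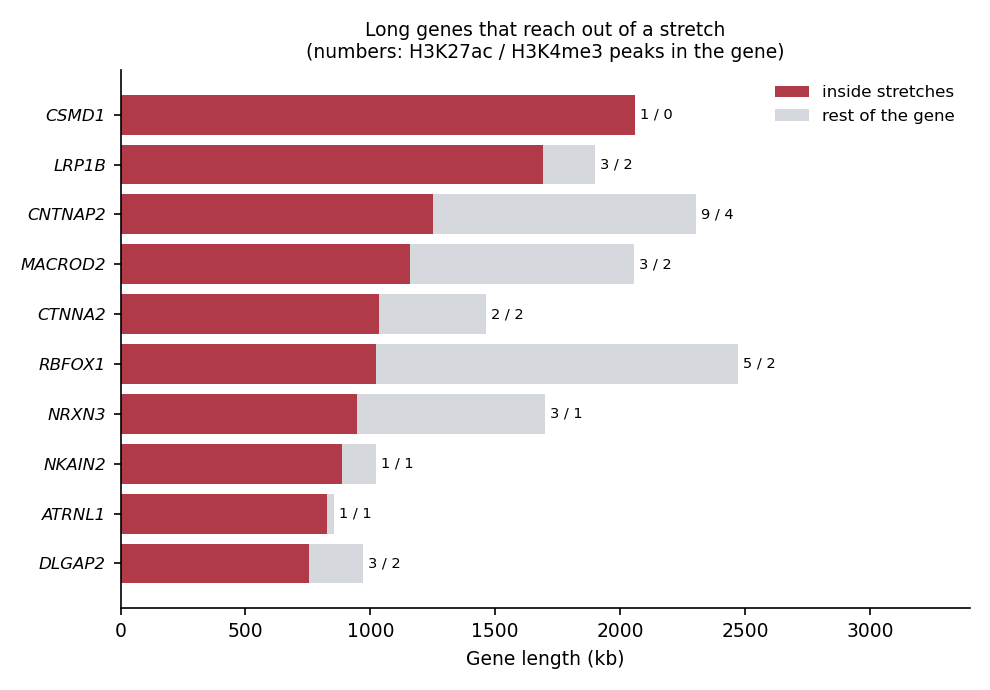
The 10 genes with most sequence in stretches among those that reach out of one, with gene length (kb) as the bar, the part inside stretches in red and the rest in grey, and the number of H3K27ac and H3K4me3 peaks in the gene after each bar. CSMD1 lies in stretches for 2059 kb with 1 H3K27ac peak, and CNTNAP2 for 1252 of 2304 kb with 9 H3K27ac and 4 H3K4me3 peaks.

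Promoter sequences were at hand for 209 of the 308 genes inside (67.9%), too few for a check of promoter composition over the set, which is therefore void. The values are given for those genes alone. CpG observed/expected is the number of CpG dinucleotides over that expected from the C and G content of the window. The median over the 209 was 0.193, with 2 CpG per window. It was 0.264 over 4266 promoters of genes not inside without a peak, and 0.847, with 27 CpG, over the 10626 with a peak, which were 70.4% of all promoters. A ratio of 0.6 or more was reached by 32 of the 209 (15.3%) and by 17.9% of the 4266 without a peak. Over all 15101 promoters of protein-coding genes with a sequence the share was 66.3%. The letters TATAAA on either strand were found in 57 of the 209 (27.3%), in 19.9% of the 4266 and in 9.71% of the 15101 promoters.

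The CpG-rich promoters in the stretches fell into those with a copy elsewhere and those without. TAFA5, which encodes a secreted protein of brain, had 67 CpG in its 300 bases and a ratio of 1.20, the most CpG of the promoters in the stretches. CRMP1, a protein of growing axons, had 49 CpG and 0.959, EVC2 had 32 and 0.839, SOX1 had 37 and 0.819, TIMP3 had 31 and 0.788, and NETO1, an auxiliary subunit of glutamate receptors, had 28 and 0.783. None of TAFA5, CRMP1, SOX1, TIMP3 and NETO1 shared a 30-base word with a promoter elsewhere. The highest ratio of all, 3.57 at LOC107984126, rested on 1 CpG, and POTEB3 (1.21), SERF1A (1.14), LOC102724428 (1.05) and OR3A2 (1.04) were also among the 6 highest. At the other end CSN3, MMP26, MS4A2, MS4A5, OPRPN and OR1S2 were among 27 promoters with no CpG.

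Near-identical copies were common among the promoters at hand, which do not stand for all 308 genes inside. Of the 209 promoters 43 (20.6%, 15.3 to 26.7) shared at least 50% of their 30-base words with a promoter at another place. That place could lie in the same stretch. The share was 5.32% over the 4266 promoters of genes not inside without a peak and 1.98% over all 15101. The 43 were uneven, with 2 of the 69 olfactory receptor promoters inside and 41 of the 140 others. The promoters of TP53TG3, TP53TG3C, TP53TG3E and TP53TG3F lay in a stretch of 1014 kb on chromosome 16 and were identical over all 300 bases to each other and to that of TP53TG3D. SERF1A, in a stretch of 1406 kb on chromosome 5, was identical to SERF1B, LOC102724428 on chromosome 21 to SIK1, and POTEB2 to POTEB, and 11 promoters in all had an identical copy. GTF2H2, a subunit of a general transcription factor, shared 66.8% of its words and had 32 CpG. PRAMEF1, PRAMEF2 and PRAMEF10 shared 86.3%, 80.8% and 88.9%. The part that unplaceable reads play at these genes was not tested.

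The share of microRNA genes inside lay between the 1.61% of protein-coding genes and the 3.66% of all genes. They numbered 47 inside of 1793 (2.62%, 1.93 to 3.47), some of them copies that are not independent. The mature sequences of the first of them along chromosomes 1 to 4, with bases 2 to 8, the seed, in capitals, differ from each other in the seed, and those of chromosome 15 are shown because the same mature sequence is encoded at 2 places in 1 stretch of 969 kb, MIR3118-2 and MIR3118-3 for miR-3118 and MIR5701-1 and MIR5701-2 for miR-5701.
hsa-miR-4251, chr1:3128009-3128025, plus strand: cCUGAGAAaagggccaa
hsa-miR-4689, chr1:5862711-5862732, minus strand: uUGAGGAGacauggugggggcc
hsa-miR-4264, chr2:79649333-79649349, minus strand: aCUCAGUCauggucauu
hsa-miR-8080, chr2:79866551-79866573, minus strand: gAAGGACAcuggugucaacggcu
hsa-miR-7157-5p, chr2:140586663-140586685, minus strand: uCAGCAUUcauuggcaccagaga
hsa-miR-7157-3p, chr2:140586626-140586647, minus strand: uCUGUGCUacuggaugaagagu
hsa-miR-1973, chr4:116299750-116299768, plus strand: aCCGUGCAaagguagcaua
hsa-miR-6082, chr4:171186189-171186207, plus strand: gAAUACGUcugguugaucc
hsa-miR-3118, chr15:20832838-20832860, plus strand: uGUGACUGcauuaugaaaauucu
hsa-miR-3118, chr15:21406428-21406450, plus strand: uGUGACUGcauuaugaaaauucu
hsa-miR-5701, chr15:20940261-20940279, plus strand: uUAUUGUCacguucugauu
hsa-miR-5701, chr15:21513968-21513986, plus strand: uUAUUGUCacguucugauu
MIR378D1 lay inside as well. MIR4264 and MIR8080 lay in the span of CTNNA2 and MIR7157 in that of LRP1B, both among the long genes above.

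The regions that bounded the stretches were narrow and weak. They numbered 486, with a median width of 536 bp against 980 bp for the 74945 other regions. Their 367 H3K27ac peaks had a median score of 41.65 against 65.5 for the 70676 others, and none reached the value of 3100 at which scores pile up, which 3.80% of the others did. Their 162 H3K4me3 peaks had a median of 141 against 596, and 19 of them (11.7%) scored 3100 or more against 34.7%. Only 37 of the 486 (7.61%, 5.42 to 10.3) held both marks, against 26.9% of the others. H3K27ac alone made up 66.9% (62.5 to 71.0) against 61.4%, and H3K4me3 alone 25.5% (21.7 to 29.6) against 11.7%.

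**Figure D5:**
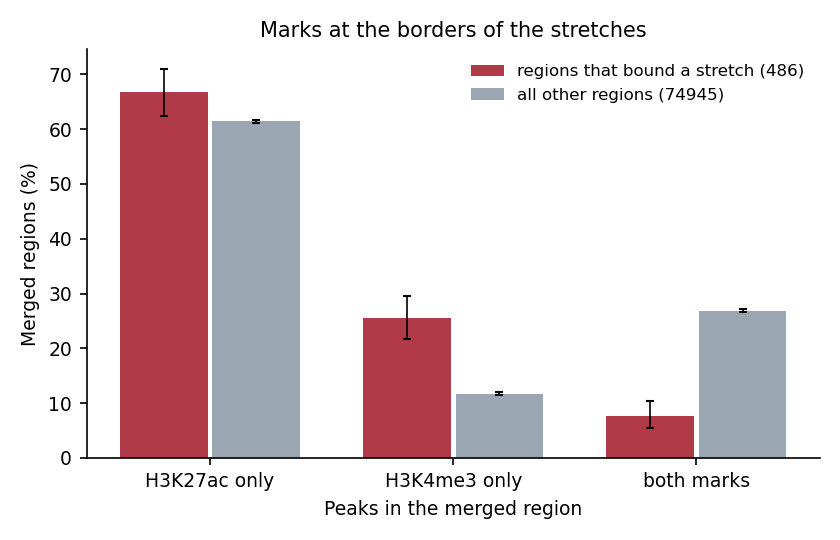
Share of merged regions (%) with H3K27ac only, H3K4me3 only or both marks, for the 486 regions that bound a stretch (red) and the 74945 others (grey), with exact 95% binomial intervals as error bars. Both marks together are at 7.61% of the bounding regions against 26.9% of the others.

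At 24 places a lone region parted neighbouring stretches, which joined 44 of the 255 into 20 chains. These regions had a median top score of 55.2, 11 were under 50 and 16 overlapped no annotated gene. The highest were the H3K4me3 peaks at B3GALT1, with 3100, and at TSHZ3, a developmental transcription factor gene, with 2217 and a width of 4974 bp between stretches of 627 and 991 kb. The next were far lower, at 136 (H3K27ac, chromosome 17), 111 (H3K4me3, chromosome 13) and 101 (H3K27ac, chromosomes 8 and 3). By number of stretches the largest chain took 4 stretches and 4.54 Mb on chromosome 17, with no whole protein-coding gene. A chain of 3 stretches and 4.13 Mb on chromosome 8 held 5 protein-coding genes whole, MYOM2, a sarcomere gene, and LOC genes, and CSMD1 and KBTBD11 in part. By length the largest was the 21.9 Mb of the adjoining stretches on chromosome 1.

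The marks differed in how far their own gaps reached around the stretches. The gap between H3K27ac peaks around a stretch had a median of 761 kb (interquartile range 593 to 1024) and was the stretch itself in 127 cases (49.8%). The gap between H3K4me3 peaks had a median of 1327 kb (867 to 2207) and was the stretch itself in 30 (11.8%). H3K4me3 had fewer peaks than H3K27ac, and the part of that in the longer gaps was not tested.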

How the data were processed

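Per the labels, living cells were fixed with formaldehyde and their chromatin was cut by sonication and micrococcal nuclease. The submitters' processing notes name Bowtie2, MACS 1.4 and hg38, with no parameters; which version of Bowtie2 is not stated. The authors deposited 1 peak list per library, with a score per peak whose unit is not stated. The deposited score was used to describe and filter peaks within a list only.

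Positions are counted from 1 on hg38. Peaks that overlap or touch were merged, and the merged regions differed from those of bedtools 2.31.1 by 0. Gene positions are those of RefSeq on GRCh38.p14, the same assembly as hg38, which gives spans without strand; promoters came from a RefSeq table with strand, which had 15101 of 19126 autosomal protein-coding genes. Gaps and gene placement were tested on simulated data. A gene was inside when its whole span was. Families were set by symbol patterns. The members and lists were chosen with earlier results of these data known.

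Named were the 10 longest stretches and the 10 with most protein-coding genes, with the first 4 genes of each or all of up to 6; the first 4 of each family with 3 or more inside; the 10 longest genes inside and the 10 with most overlap that reach out; the 6 promoters with most and with fewest CpG relative to expectation (ties by symbol); the first 8 miRNAs; and the 6 strongest lone regions. Some genes and regions, of this rule and of the families, are not reported here. Others are said to be chosen after their values were seen, as were the other CpG-rich promoters, the further miRNAs and B3GALT1. Alternatives were gap minimums of 250 kb and 1 Mb, scores of at least 100, each mark alone, no stretches without genes, chromosome X, gene midpoint, any overlap and promoter position; a score of at least 50 and leaving out copied promoters were added after seeing the data. Python 3.11.15, numpy 2.4.6, pandas 2.3.3, scipy 1.17.1 and matplotlib 3.10.9 were used.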

Additional observations from a re-analysis of the deposited data

How the results depend on the processing

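The 1.49 protein-coding genes per Mb stayed within 1.5 times under 7 of 8 alternatives. With gaps of 250 kb or more there were 1308 stretches, 615 Mb, 779 genes inside, 39.9% of olfactory receptor genes inside and a median border score of 264 for H3K4me3. With 1 Mb or more there were 43 stretches, 121 Mb, 83 genes, 9.21% of olfactory receptor genes, 0.769 genes per Mb, a median promoter CpG ratio of 0.228 and a border score of 39.4 for H3K27ac. Peaks scoring at least 100 gave 867 stretches, 999.5 Mb, 1058 genes, 46.5% of olfactory receptor genes, a CpG ratio of 0.234 and border scores of 296 (H3K27ac) and 1665 (H3K4me3). Peaks scoring at least 50, added after seeing the data, gave 727 stretches, 705 Mb, 713 genes, 40.9% of olfactory receptor genes and border scores of 81.4 and 774. H3K27ac alone gave 589 genes, 33.5% of olfactory receptor genes and a CpG ratio of 0.255. H3K4me3 alone gave 949 stretches, 943 Mb, 936 genes and 42.7% of olfactory receptor genes. Fewer peaks or another minimum length change these counts by construction. Border scores for the mark left out could not be computed. The other results under these settings, and those without gene-free stretches, with chromosome X, by midpoint, any overlap or promoter position and without copied promoters, moved by less than 1.5 times or stayed within their binomial interval. The planned removal of undetermined bases was not run, since no genome was used here. Read depth is unknown, so the length at which a stretch would be broken by weaker peaks cannot be given. No paired analysis was possible because each mark had 1 library.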

Other observations

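Chromosome X was left out of the stretches described. By the same definition it had 31 stretches with 31.0 Mb, 20.3% of its span from the first to the last of its peaks, the longest 5.31 Mb. They held 41 of 848 protein-coding genes (4.83%, exact 95% binomial interval 3.49 to 6.50), against 1.61% on the autosomes. Families with 3 or more members inside, chosen after their values were seen, were GAGE (11 of 12), MAGEB (9 of 11) and VCX (4 of 4), which are known for expression in testis.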
